A study of Mus musculus with 9 samples.

Results

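The cytosolic ribosomal proteins were taken as every probe whose gene name on the array is Rpl or Rps followed by a digit, or is Rplp0, Rplp1, Rplp2 or Rpsa. Kinase names beginning Rps6k (20 probes), names ending in l (6 probes) and pseudogene names (2 probes) were left out. The rule found 81 gene names on 184 probes, out of 18392 genes tested and 55681 probes on the array, and no measured value was used to choose them. Of these, 76 are genes of ribosomal subunits, 46 of the large and 30 of the small subunit. The remaining 5 names matched the pattern but are no subunit gene (Rpl22l1, Rpl7l1, Rpl22p, Rps4y2 and Rps19bp1), and they are described apart.

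RNA was measured on 9 one-colour Agilent arrays, 3 in each of 3 groups of peritoneal macrophages from male mice, sorted as CD45+F4/80+ cells before extraction. Ctrl was kept in plain medium for 24 h. T was co-cultured for 24 h with CT-26, a mouse colorectal carcinoma line, and its labels name the lower chamber of a Transwell (a well split by a porous membrane) without saying which cells it held. M was the macrophages taken as migratory from the upper chamber when CT-26 was the partner in the Transwell, and the sources used here give no duration for it. One label field calls the cells of T migratory; the groups follow the titles and descriptions, which do not. Whether the arrays of a group stem from different mice or wells is not stated, so the p-values reflect only how far these arrays differ, which may be technical. Ctrl and M shared a slide and scan while T had its own, so slide and co-culture cannot be told apart in comparisons with T.

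All 13 tested macrophage markers were well above background on all 9 arrays, and their summed linear signal, in multiples of the array's 75th percentile, ran from 202.7 to 242 (Ctrl), 168 to 227 (T) and 195 to 272 (M). Single ones differed at an adjusted p under 0.05 (limma): 5 were higher in T and 6 in M than in Ctrl, none lower. In M against T 3 were higher and 2 lower. Over all genes these shares were 44.9%, 23.3% and 25.5%. Adgre1, which encodes F4/80, was higher in M by 2.86 ± 0.22 (SE, log2) than in Ctrl and by 2.76 ± 0.22 than in T. Mertk was higher in T than in Ctrl by 2.74 ± 0.20. Summed markers of carcinoma epithelium lay between 2.21 and 4.46, of T and NK cells between 2.31 and 3.71, of B cells between 2.11 and 3.27, and of granulocytes between 15.7 and 27.5 on the 9 arrays. Single epithelial markers moved both ways: Krt19, a keratin, was higher in T than in Ctrl by 3.63 ± 0.27 (SE) on the log2 scale, while Epcam, an adhesion molecule of epithelium, was lower, at -1.60 ± 0.29. Summed markers of mesothelium and fibroblasts, Krt19 among them, were 0.345 to 0.555 in Ctrl, 0.756 to 0.840 in T and 0.303 to 0.427 in M, and those of mast cells 0.200 to 0.278, 0.355 to 0.375 and 0.152 to 0.213. In these 2 lists too, single markers moved both ways in T against Ctrl. Col1a2 was lower, at -0.84 ± 0.27. Tpsb2, of the mast cell markers, was higher by 1.54 ± 0.23, while Cma1 was lower, at -1.21 ± 0.23. Kit was well above background on no T array and at least 2.82-fold lower there. The part of all these markers in the results was not tested. Replicate spots of a probe varied by a median of 15.0% on M1 and 19.8% on M3, against 4.39% to 8.72% on the other arrays. No spot was saturated. In RNA of sorted bulk cells, fewer cells of a type and less RNA per cell cannot be told apart.

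A ribosome joins a small subunit, which reads the message, to a large subunit, which forms peptide bonds. Each carries many proteins in fixed proportion, so their genes are usually transcribed at a balanced and very high level in every cell type. In mammals their messages belong to the TOP class, which starts with a C followed by a run of pyrimidines, and whose translation is raised or held back as a block by mTOR signalling through LARP1. An array of total RNA reads the amount of these messages and not their translation.

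Because the class is defined by the start of the message, the 30 bases around the RefSeq start (15 before and 15 from it, GRCm38.p6) are shown for members of both subunits, with the pyrimidine run in capitals. Rplp0 is shown as a member whose annotated start has no such run.
Rps6, chr4:86857353-86857382 (minus strand): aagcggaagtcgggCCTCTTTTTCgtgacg
Rps18, chr17:33955651-33955680 (minus strand): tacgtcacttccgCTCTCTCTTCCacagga
Rps27, chr3:90213634-90213663 (minus strand): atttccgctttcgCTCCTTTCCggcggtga
Rpl15, chr14:18270972-18271001 (minus strand): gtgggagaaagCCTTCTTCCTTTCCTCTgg
Rpl27a, chr7:109519180-109519209 (plus strand): gacttcgtgagCTCCTCCCTTTTCCCTTTC
Rpl38, chr11:114668565-114668594 (plus strand): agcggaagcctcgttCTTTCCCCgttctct
Rplp2, chr7:141447636-141447665 (plus strand): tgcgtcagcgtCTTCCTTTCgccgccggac
Rplp0, chr5:115559452-115559481 (plus strand): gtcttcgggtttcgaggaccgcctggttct
The run was searched for on the transcribed strand only, as a C followed by at least 4 letters that are each C or T, beginning no more than 5 bases from the annotated start. Each unbroken run was taken from its first C. A run that began further upstream and crossed the start was therefore not counted, in the subunit genes or in the whole table. Of 55 subunit genes with an entry in the RefSeq promoter table, 23 (41.8%) held one, against 5039 of 27025 genes (18.6%) in the whole table. A match is a match of letters, and a start annotated a few bases off would miss it.

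None of the 76 subunit genes passed the test in any of the 3 comparisons, where a call is an adjusted p under 0.05 (limma, Benjamini-Hochberg over all 18392 genes). Over all genes tested the share called was 44.9% for T against Ctrl, 23.3% for M against Ctrl and 25.5% for M against T. Including the 5 other names, 1 of the 81 was lower in T than in Ctrl (Rps4y2), 1 lower in M than in Ctrl (Rps4y2 again), 1 lower in M than in T (Rpl7l1), and none was higher. Lower calls over all genes made up 27.3%, 11.1% and 10.8%, and higher calls 17.5%, 12.2% and 14.7%. At an unadjusted p under 0.05 the subunit genes numbered 2, 4 and 1, against 53.0%, 40.6% and 38.1% of all genes tested and 14.2%, 12.9% and 5.51% of 472 other genes as bright as these. With the replicate number as a block in a fit of only Ctrl and T, 1 subunit gene (Rpl5) was lower in T. Leaving out 1 array changed the counts most without T1, where 12 subunit genes and Rps4y2 were lower in T than in Ctrl.

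Levels are given as log2 processed signal minus the log2 75th percentile of the same array. The median subunit gene stood at 6.07, 5.77 and 5.91 on the 3 Ctrl arrays. It stood at 6.01, 5.37 and 5.49 on the T arrays and at 5.45, 5.92 and 5.62 on the M arrays. T1 lay with the Ctrl arrays and M2 between them, while T2, T3, M1 and M3 lay below all 3 of Ctrl. The groups therefore overlapped, and the spread within T and M was wider than within Ctrl. A subunit gene had a median SD of 0.19 among Ctrl, 0.37 among T and 0.28 among M arrays. Over the 472 other genes as bright as these the median SDs were 0.19, 0.31 and 0.26. Over all genes tested they were 0.30, 0.17 and 0.22, widest in Ctrl. After each array's own subunit median was taken off, the SDs of the subunit genes were 0.08, 0.06 and 0.09. Most of their spread was therefore shared by all subunit genes of an array.

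**Figure D1:**
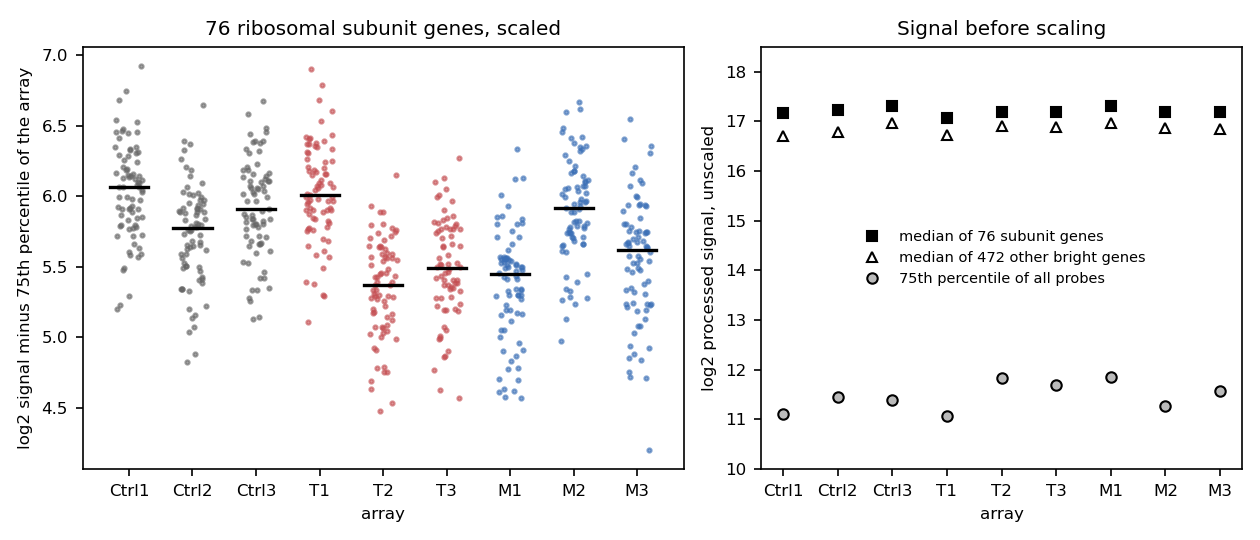
Left, scaled log2 level of the 76 subunit genes (points) on each of 9 arrays, with the array's median as a bar; right, before scaling, the log2 median of the same genes, the log2 median of 472 other genes as bright as these, and the 75th percentile of all probes used for scaling. On the left T2, T3, M1 and M3 sit lowest; on the right the subunit median stays between 17.08 and 17.31 while the 75th percentile moves between 11.07 and 11.86.

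Before scaling, the median log2 signal of the subunit genes moved little, from 17.08 on T1 to 17.31 on M1, a range of 0.23. The 75th percentile subtracted from it ranged over 0.79, from 11.07 on T1 to 11.86 on M1. The 3 arrays with the lowest 75th percentile (T1, Ctrl1 and M2) were the 3 with the highest scaled subunit median. The 472 non-member genes whose probe was at least as bright as the dimmest subunit probe (mean 4.89) had unscaled medians within 0.27 of each other over the arrays. The part of this in the differences between groups was not tested beyond the other scalings tried.

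The median subunit gene differed by -0.28 in T against Ctrl, by -0.29 in M against Ctrl and by -0.02 in M against T. The same medians over all genes tested were -0.14, -0.09 and 0.11. Differences were below 0 for 74 of 76 subunit genes in T against Ctrl, for 73 in M against Ctrl and for 42 in M against T; over all genes the shares below 0 were 57.9%, 56% and 41.5%, and over the 472 other bright genes 81.1%, 77.5% and 46.2%. Both comparisons with Ctrl use the same Ctrl arrays. Over the 81 names, other scalings moved the T against Ctrl median to between -0.14 (scaling on the 2000 brightest genes) and 0.02 (cyclic loess), across 0, and the M against Ctrl median to between -0.22 and -0.03. Single arrays moved the medians of the 81 names too. Leaving out 1 array gave -0.48 (without T1) to -0.12 (without T2) in T against Ctrl and -0.44 (without M2) to -0.16 (without M1) in M against Ctrl. In M against T it gave -0.19 (without M2) to 0.17 (without T1), so that direction rests on single arrays. Without both M1 and M3, whose replicate spots varied most, the M against Ctrl median was 0.01.

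The intervals, not adjusted for the number of genes, cover the spread between arrays under the main scaling only. They do not cover a shift from the choice of scaling. The 95% interval of the difference lay within 1 log2 unit of 0, that is within a 2-fold change either way, for 68 of the 76 subunit genes in T against Ctrl, for 67 in M against Ctrl and for 74 in M against T. Over all genes that share was 45.5%, 53.4% and 53.5%, and over the 472 other bright genes 78.6%, 79.2% and 91.3%. The median half-width of the interval was 0.52 in each comparison.

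**Figure D2:**
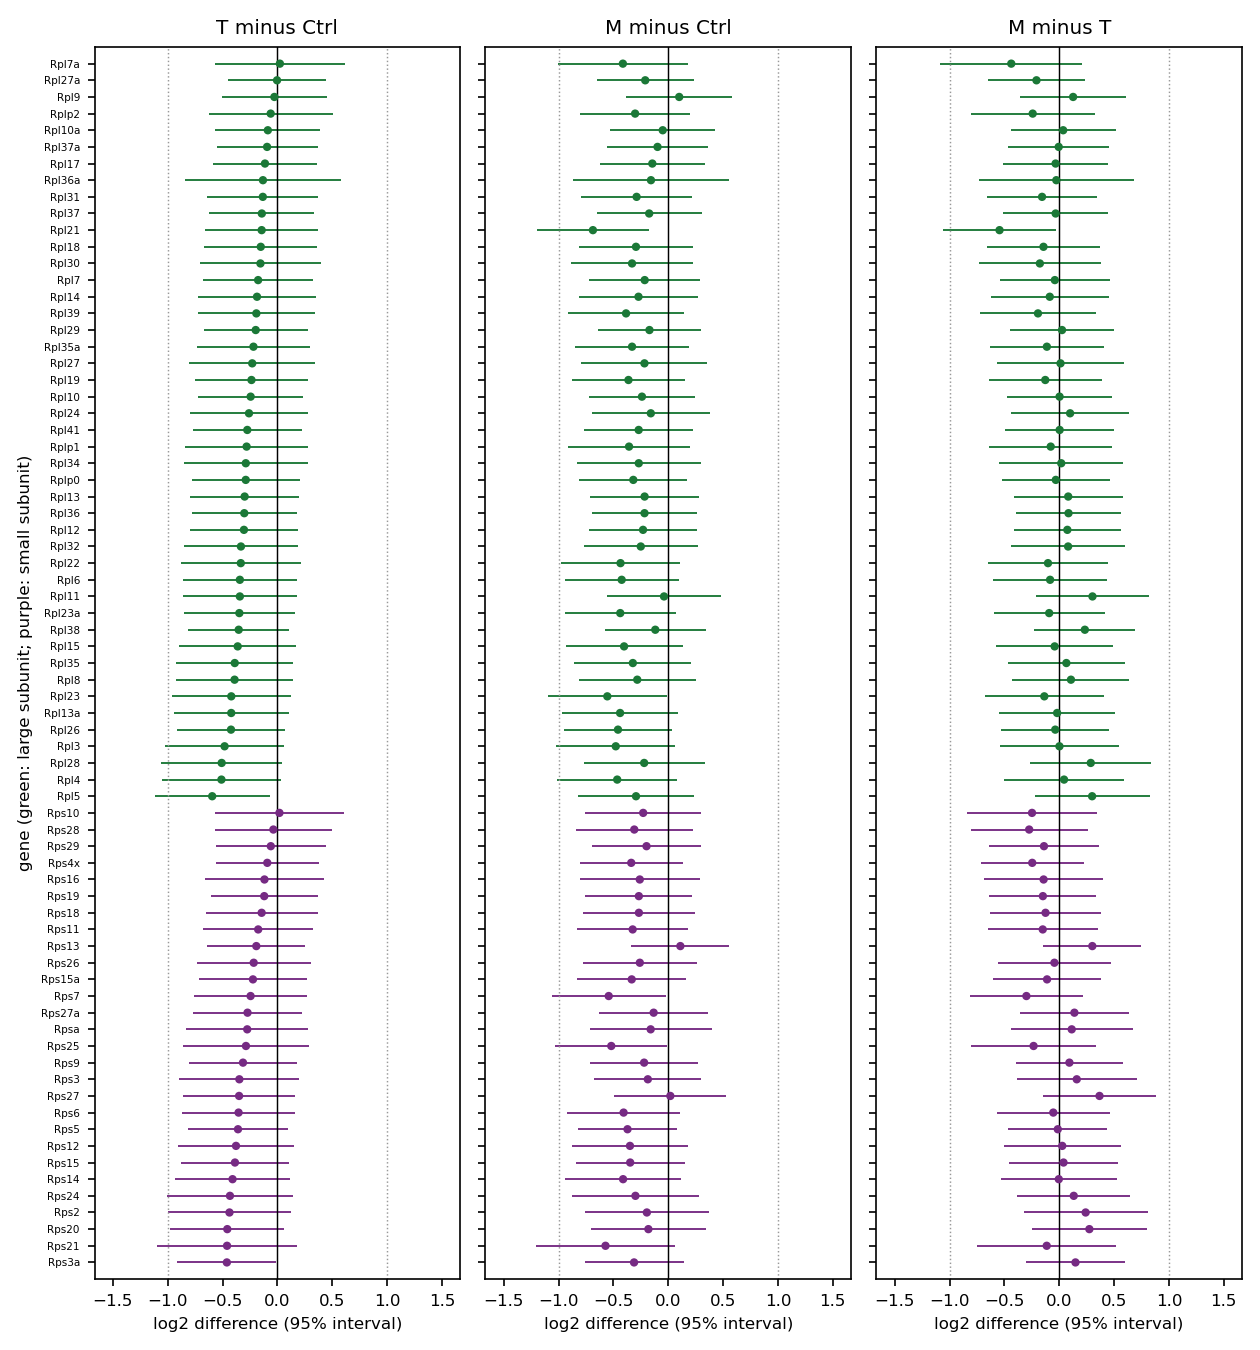
Log2 difference (point) and 95% interval (line) of 73 of the 76 subunit genes in the 3 comparisons, large subunit in green and small subunit in purple, ordered by T minus Ctrl within each subunit; dotted lines mark a 2-fold change. Nearly all points of the first 2 panels lie left of 0 and within the dotted lines, and no gene passed the test.

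Subunit genes were read at the top of the array's range, where few genes of any kind were called. Of 402 genes with a mean level of 5 to 6, which hold 60 of the subunit genes, 3.73% were called in T against Ctrl, 0.50% in M against Ctrl and 1.24% in M against T. At levels below -4 the shares were 68.7%, 27.5% and 35.1%. Among the 472 other genes as bright as the subunits, 5.08% were called in T against Ctrl, 0.636% in M against Ctrl and 1.27% in M against T. Read against those genes rather than against the whole array, 0 of 76 lies near the background share in the 2 comparisons with M. In T against Ctrl it lies below the 5.08%. At an unadjusted p under 0.05 (limma) the subunit shares were 2.63%, 5.26% and 1.32%, against 14.2%, 12.9% and 5.51% of those genes. Whether these shares differ was not tested.

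**Figure D3:**
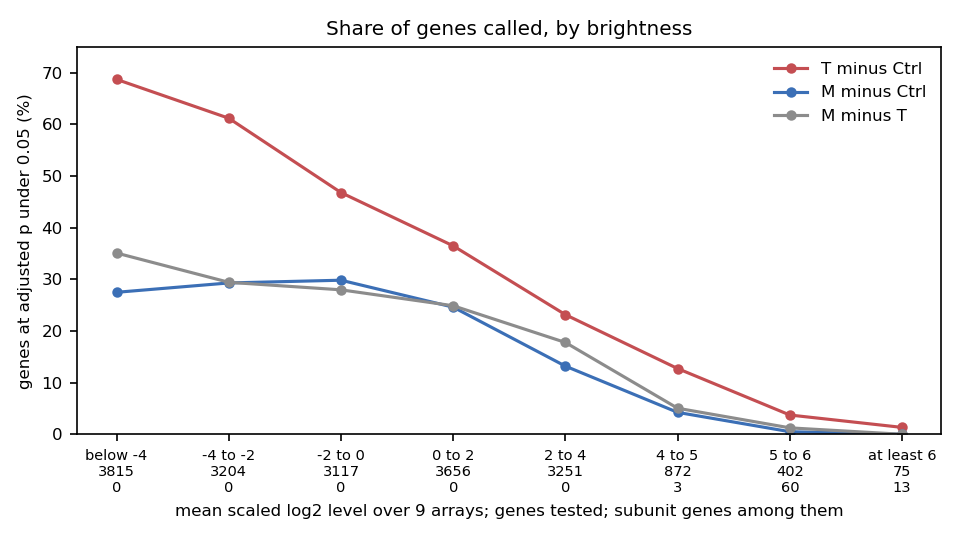
Percentage of genes at an adjusted p under 0.05 (vertical axis) by mean scaled log2 level (horizontal axis, with the number of genes tested and of subunit genes under each bin), for the 3 comparisons. The share falls from 68.7% to 1.33% in T against Ctrl from the dimmest to the brightest bin, and 73 of the 76 subunit genes lie in the last 2 bins.

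The acidic stalk, which recruits elongation factors to the large subunit, is built from Rplp0, Rplp1 and Rplp2. Rplp0 read 6.46, 6.18 and 6.39 in Ctrl, 6.41, 5.80 and 5.96 in T, and 5.75, 6.38 and 5.95 in M. It differed by -0.29 (SE 0.22) in T against Ctrl (adjusted p = 0.313) and by -0.32 (SE 0.22) in M against Ctrl (adjusted p = 0.296). T1 and M2 of Rplp0 lay within the Ctrl range and the other 4 arrays below it. Rplp1 read 5.57, 5.16 and 5.34 in Ctrl, 5.58, 4.78 and 4.86 in T, and 4.78, 5.34 and 4.88 in M, with T1 and M2 again at the Ctrl level. Rplp2 had no value on T2, whose spot was marked as an outlier, and differed by -0.06 (SE 0.25) in T (2 arrays) and -0.30 (SE 0.22) in M against Ctrl.

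Rpl5 and Rpl11 form a particle with the 5S rRNA that, outside the ribosome, binds and inhibits the p53 ligase MDM2. Rpl5 read 5.92, 5.68 and 5.66 in Ctrl, 5.57, 4.92 and 4.99 in T, and 5.05, 5.66 and 5.66 in M, so that every T array was below every Ctrl array. Its difference in T against Ctrl was the lowest of the 76 subunit genes, -0.59 (SE 0.24), with a 95% interval of -1.12 to -0.07 and an adjusted p of 0.063, which misses the threshold. Of 26 other settings it passed in 4: without T1, without M1, with a variance trend and robust weights, and with the replicate number as a block in a fit of only the Ctrl and T arrays (adjusted p = 0.0262, limma). Deviations of same-numbered Ctrl and T arrays correlated at 0.12 to 0.55, so that last fit treats them as pairs. Differently numbered ones ran from -0.45 to 0.19, so the pairing is not established. In M against Ctrl it differed by -0.29 (SE 0.24) (adjusted p = 0.365). Its partner Rpl11 read 6.41, 6.09 and 6.34 in Ctrl, 6.42, 5.57 and 5.83 in T, and 6.01, 6.41 and 6.31 in M and differed by -0.34 (SE 0.23) and -0.04 (SE 0.23). The brightest Rpl5 probe lies at chr5:108333834-108333892 on mm9.

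Rps6 is the small subunit protein phosphorylated by the S6 kinases. Its brightest probe read 6.15, 5.91 and 5.77 in Ctrl, 6.01, 5.30 and 5.46 in T, and 5.30, 5.83 and 5.48 in M and differed by -0.35 (SE 0.23) in T and -0.41 (SE 0.23) in M against Ctrl (adjusted p = 0.234 and 0.206). T1 and M2 again stood with Ctrl and the other 4 arrays below it. Rps3, which sits at the entry of the message channel and also works in DNA repair, had no value on T3 and differed by -0.35 (SE 0.24) in T (2 arrays) and -0.19 (SE 0.22) in M against Ctrl. Rps19, mutated in Diamond-Blackfan anaemia, read 5.63, 5.22 and 5.42 in Ctrl, 5.69, 5.03 and 5.19 in T, and 4.90, 5.32 and 5.24 in M and differed by -0.12 (SE 0.22) and -0.27 (SE 0.22). Rpsa, also known as the laminin receptor, differed by -0.27 (SE 0.25) and -0.16 (SE 0.25), and Rps27a, made as a fusion with ubiquitin, by -0.27 (SE 0.22) and -0.13 (SE 0.22).

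Of the large subunit, Rpl3 lies next to the peptidyl transferase centre and read 5.60, 5.20 and 5.13 in Ctrl, 5.29, 4.63 and 4.56 in T, and 4.62, 5.13 and 4.75 in M. It differed by -0.48 (SE 0.24) in T and -0.48 (SE 0.24) in M against Ctrl (adjusted p = 0.132 and 0.165). Rpl13a, which in activated monocytes can leave the ribosome to silence inflammatory messages, differed by -0.42 (SE 0.24) and -0.44 (SE 0.24) (adjusted p = 0.172 and 0.186). Its 3 M arrays were all below its 3 Ctrl arrays, as in 9 subunit genes with that pattern in M against Ctrl, against 2 in T against Ctrl and 2 in M against T. The groups were likewise apart for 36.3%, 53.5% and 48.4% of all genes. Rpl10, one of the last proteins to join the large subunit, differed by -0.24 (SE 0.22) and -0.24 (SE 0.22), and Rpl22, which also binds RNA outside the ribosome, by -0.33 (SE 0.24) and -0.44 (SE 0.24).

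Other subunit genes came near the threshold. Rpl21 read 5.49, 5.04 and 5.34 in Ctrl, 5.39, 4.99 and 5.05 in T, and 4.63, 4.97 and 4.20 in M. All 3 M arrays lay below all 3 arrays of both other groups, and M3 was the lowest. It differed by -0.69 (SE 0.23) in M against Ctrl (adjusted p = 0.0544) and by -0.54 (SE 0.23) in M against T (adjusted p = 0.111), the lowest difference of the 76 subunit genes in both. Of 26 other settings Rpl21 passed as lower in 7 in M against Ctrl, normexp background correction and leaving out M2 among them, and in 4 in M against T, quantile normalization among them. Rps3a, of the platform side of the small subunit, read 6.24, 6.01 and 6.05 in Ctrl, 5.99, 5.45 and 5.48 in T, and 5.62, 6.05 and 5.70 in M and differed by -0.46 (SE 0.20) in T against Ctrl (adjusted p = 0.089). Without T1 the 12 subunit genes lower in T included Rpl3, Rpl4, Rpl5, Rpl6, Rpl13a, Rpl28, Rpl38, Rps2, Rps3a, Rps20 and Rps21.

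Across the subunit genes the differences ran from -0.59 (Rpl5) to 0.02 (Rpl7a, 2 T arrays) in T against Ctrl and from -0.69 (Rpl21) to 0.11 (Rps13) in M against Ctrl. In M against T they ran from -0.54 (Rpl21) to 0.37 (Rps27). The median was -0.28 for the large and -0.30 for the small subunit in T against Ctrl. In M against Ctrl these were -0.29 and -0.28, and in M against T -0.03 and -0.01. Neither subunit stood apart from the other by more than 0.03.

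The 5 names that are no subunit gene were dimmer, apart from Rpl22p, and 2 of them were called. Rps4y2 is listed on the array as a non-coding RNA related to the small subunit gene Rps4, is named Rps4l in RefSeq, and its probe lies at chr6:148304043-148304102 on mm9. It read -0.41, -0.75 and -0.96 in Ctrl, -1.73, -2.23 and -2.09 in T, and -1.67, -1.23 and -1.26 in M. The T and M arrays were all below the Ctrl arrays. Rps4y2 was lower in T than in Ctrl, at -1.31 (SE 0.22) (adjusted p = 0.00141) and lower in M, at -0.68 (SE 0.22) (adjusted p = 0.0475). The call in T held under 26 of 26 other settings. That in M was lost under 17 of 26, among them median scaling and leaving out any 1 of the M arrays.

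Rpl7l1, a paralogue of Rpl7 that acts in ribosome assembly, read 1.41, 1.24 and 1.54 in Ctrl, 1.95, 1.76 and 1.77 in T, and 1.14, 1.52 and 1.19 in M. Every T array lay above every Ctrl and M array. It was lower in M than in T, at -0.54 (SE 0.17) (adjusted p = 0.0433) and differed by 0.43 (SE 0.17) in T against Ctrl (adjusted p = 0.0664). Rpl7l1 passed as higher in T than in Ctrl in 6 of 26 other settings, and lost the M against T call in 14 of 26, among them median scaling and leaving out M1, M3 or any 1 T array. Rpl22l1, the paralogue of Rpl22, read 3.96, 3.90 and 4.44 in Ctrl, 3.86, 3.75 and 3.71 in T, and 3.74, 4.35 and 3.03 in M and differed by -0.33 (SE 0.30) and -0.39 (SE 0.30) from Ctrl. Rpl22p, a predicted gene like Rpl22, differed by -0.07 (SE 0.24) and -0.14 (SE 0.24), and Rps19bp1, a nucleolar binding partner of RPS19, by 0.15 (SE 0.26) and 0.15 (SE 0.26). None of these 3 passed in any comparison.

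The array holds 178 probes for the 76 subunit genes, and 56 genes have at least 2. When every tested probe was fitted on its own (39957 probes, adjusted over all of them), the brightest probes again gave no call. Of the other 102 probes, in T against Ctrl 2 were higher and 6 lower, 4 were lower in M than in Ctrl, and 1 was higher and 6 lower in M than in T. Over all tested probes 46.5%, 18.4% and 22.8% were called. Called probes were mostly dim. Of 21 subunit probes with a mean level below 4, 6 were called in T against Ctrl, 3 in M against Ctrl and 7 in M against T, against 49.4%, 19.6% and 24.3% of all tested probes below that level. Of the 157 subunit probes at a level of 4 or more, 2, 1 and 0 were called, against 8.12%, 1.72% and 2.5%.

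**Figure D4:**
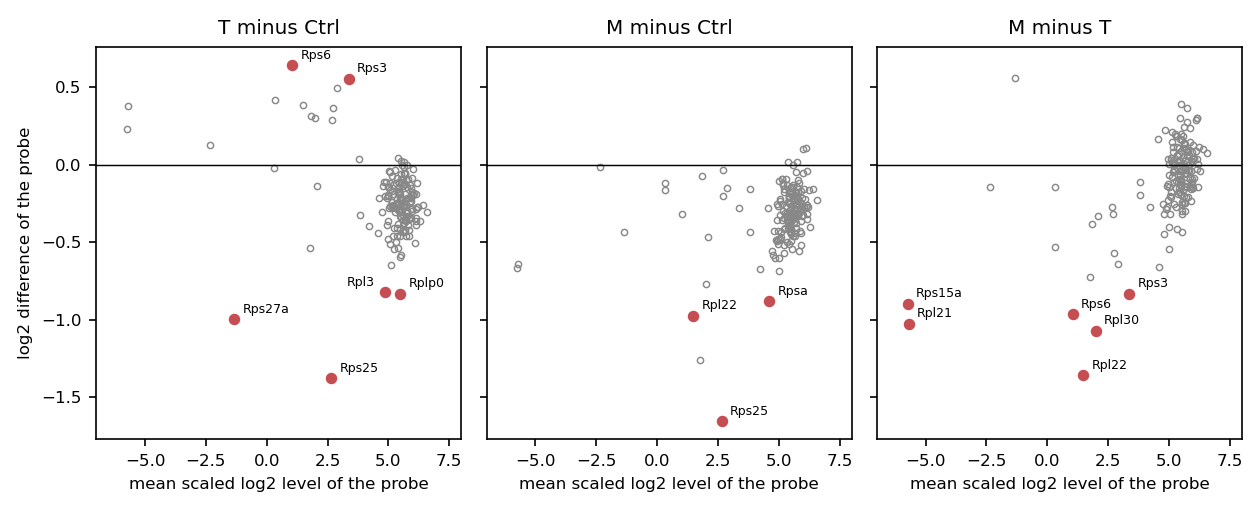
Log2 difference (vertical axis) against mean scaled log2 level (horizontal axis) of 172 probes of 73 subunit genes in the 3 comparisons; filled red points passed the test and carry the gene's name, open circles did not. The dense cloud near a level of 5.5 holds the brightest probes, none called; most called probes lie to its left.

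No subunit gene had probes called in opposite directions in 1 comparison, but several had a second probe that parted from the brightest. The probes that carry these results are shown for 3 genes by 30 of their 60 bases, brightest probe first, with the polyadenylation hexamer AATAAA in capitals where the stretch holds it.
Rps6 brightest probe, chr4:86500748-86500807: tgtcctgcaacacaaatgccgacgtattgc
Rps6 second probe, chr4:86500063-86500122: tggtgtgtatcacaagttagcctgtgtagc
Rps3 brightest probe, chr7:106627408-106627786: gatgctaccttgtaaagacatttAATAAAa
Rps3 second probe, chr7:106626430-106626489: ctctgcctcagggtattatgAATAAAgtgt
Rpl22 brightest probe, chr4:151706515-151706574: ggaggaagacgaggattaggacacattggt
Rpl22 second probe, chr4:151708012-151708071: gctgtaaacaacattaaccctgggttgatt
Positions are those of the whole probe on mm9 as the array's files give them. Rps6 and Rps3 are on the minus strand, and Rpl22 is on the plus strand. The hexamer was read on the probe's own strand. It stands in 54 of the 178 subunit probes (30.3%) and in 10.1% of all 55681 probes. An mm9 annotation was not used here, so whether a second probe lies in an exon, an intron or an extended 3′ end was not determined.

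The second Rps6 probe lies 626 bases 3′ of the brightest. It read 0.67, 1.04 and 1.07 in Ctrl, 1.59, 1.65 and 1.47 in T, and 0.63, 0.39 and 0.80 in M. All T arrays were above all Ctrl and M arrays, in contrast to the brightest probe. It was higher in T than in Ctrl by 0.64 (SE 0.19) (adjusted p = 0.0195) and lower in M than in T, at -0.96 (SE 0.19) (adjusted p = 0.00538). The second Rps3 probe, 919 bases 3′ of the brightest and with a hexamer of its own, read 3.22, 3.03 and 3.57 in Ctrl, 4.08, 3.64 and 3.76 in T, and 2.96, 3.14 and 2.88 in M. It was higher in T and lower in M, at 0.55 (SE 0.20) in T against Ctrl (adjusted p = 0.0457) and -0.83 (SE 0.20) in M against T (adjusted p = 0.0155). With the replicate number as a block the first of these Rps3 calls ended (adjusted p = 0.0751, limma). Of 17 other settings 11 ended it and 4 the second, and for Rps6 3 and 1.

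The second Rpl22 probe lies 1438 bases 3′ of the brightest and read 1.53, 1.86 and 1.66 in Ctrl, 2.10, 2.06 and 2.03 in T, and 0.66, 0.86 and 0.61 in M. The 3 groups did not overlap, with T highest and M lowest. It was lower in M than in Ctrl, at -0.97 (SE 0.17) (adjusted p = 0.00457) and lower in M than in T, at -1.35 (SE 0.17) (adjusted p = 0.000385). A second Rpl30 probe, 1759 bases 5′ of the brightest, read 2.12, 2.18 and 2.14 in Ctrl, 2.36, 2.53 and 2.45 in T, and 0.81, 2.22 and 1.11 in M. It was lower in M than in T, at -1.07 (SE 0.31) (adjusted p = 0.0328), with M2 close to the Ctrl arrays. The Rpl30 call ended in 8 of 17 other settings, among them leaving out any 1 T array, M1, M3 or Ctrl2, and the deposited value table.

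A second Rps27a probe, 1966 bases 5′ of the brightest, was lower in T than in Ctrl, at -0.99 (SE 0.19) (adjusted p = 0.00337) in 17 of 17 settings. A second Rps25 probe, 153 bases 3′ of the brightest, was lower in T, at -1.38 (SE 0.51) and in M, at -1.65 (SE 0.51) (adjusted p = 0.0469 and 0.0482), with Ctrl arrays from 2.61 to 4.60. Of 17 settings 12 ended each of the Rps25 calls.

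**Figure D5:**
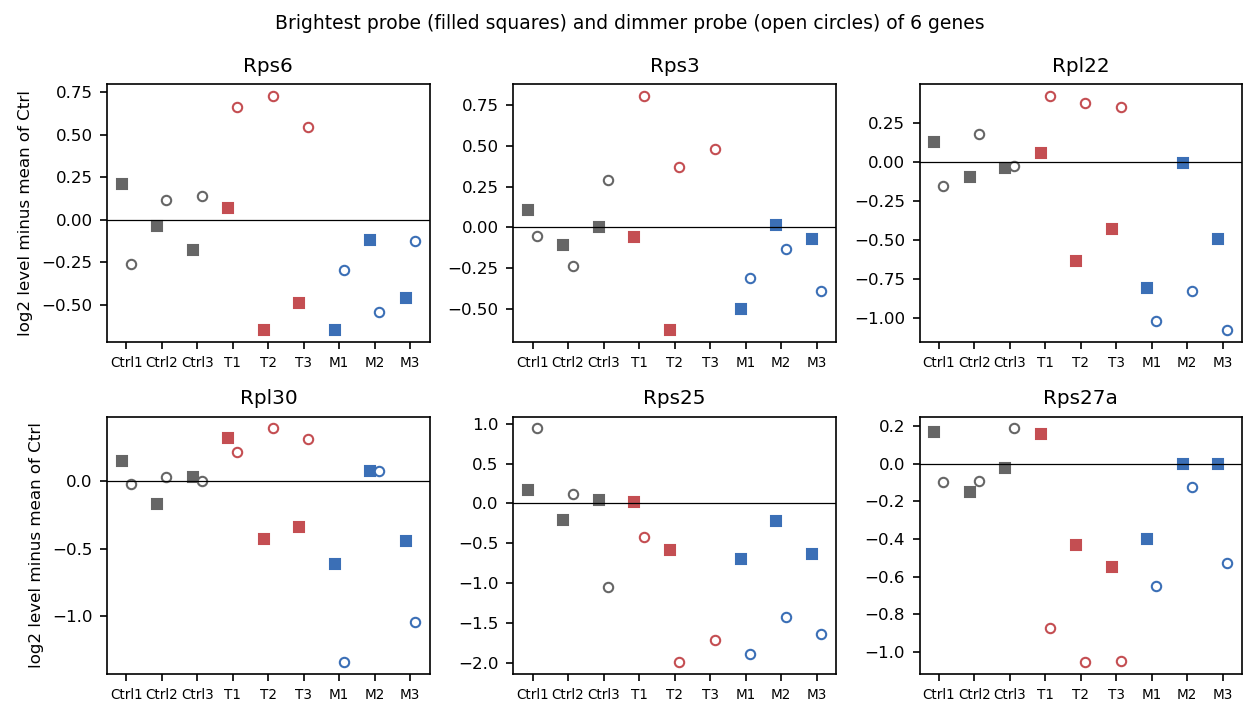
Scaled log2 level minus the probe's own Ctrl mean (vertical axis) on each of 9 arrays for the brightest probe (filled squares) and a dimmer probe (open circles) of 6 subunit genes, coloured by group; the squares of Rps3 and Rps25 on T3 are missing. The circles of Rps6, Rps3, Rpl22 and Rpl30 stand above 0 on all T arrays where most squares stand below it, and those of Rps25 and Rps27a stand below 0 on all T and M arrays.

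Brighter second probes were called for 3 genes. A second Rplp0 probe, 12 bases 3′ of the brightest and holding the hexamer, was lower in T, at -0.83 (SE 0.27) (adjusted p = 0.0301), against -0.29 (SE 0.22) for the brightest. A second Rpl3 probe was lower in T, at -0.82 (SE 0.29) (adjusted p = 0.0406), but the files place it on chromosome 5 and the brightest on chromosome 15. A second Rpsa probe, 2609 bases 5′ of the brightest, was lower in M, at -0.88 (SE 0.24) (adjusted p = 0.0372). At least 7 of 17 settings ended each of these 3 calls. Second probes of Rpl21 and Rps15a were called near the background in M against T, and 3 and 9 of 17 settings ended these calls. Both probes were well above background on no M array, and were at least 1.89-fold and 1.81-fold higher in T than in M.

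What a ribosomal protein probe binds is uncertain, because these genes have many processed copies in the genome. For 79 members both the probe's chromosome in the files and the gene's in RefSeq are known, and for 6 they differ (Rpl28, Rpl36, Rpl37a, Rps27, Rps29 and Rps4x). For 20 of the brightest probes of the 81 names the stated position spans more than the 60 bases of the probe. On 6 of the 76 subunit genes the brightest probe lacked a value on at least 1 array (Rpl7a, Rplp2, Rps3, Rps10, Rps24 and Rps25).

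The genes whose pattern over the 9 arrays was most like the mean of the standardised subunit genes are given as a description; the arrays share their scaling. All 10 of the likest had a Pearson r of 0.98 or 0.99, among them Gm6636, Gm7065, Ppil1, a peptidyl-prolyl isomerase, Crebbp, a histone acetyltransferase, and Atp5l, a subunit of the ATP synthase. Of the 10, 7 carry predicted gene names beginning with Gm, and none is described as a ribosomal protein in the files.

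The rest of the translation machinery was read from lists chosen with earlier results of these data known. Their counts stand beside the shares called among all genes at the level of each list's median. These were 12.7% for T against Ctrl, 4.24% for M against Ctrl and 5.05% for M against T at levels 4 to 5, where the elongation and initiation factors have their medians (4.39 and 4.08), and 3.73%, 0.50% and 1.24% at levels 5 to 6, where the other TOP messages do (5.34). The list of translation elongation factors also holds genes of their regulation and of release. It had 2 of 12 tested genes lower and 1 higher in T than in Ctrl. Eef2k, the kinase that inhibits elongation factor 2, was higher by 0.97, and the release factor Gspt1 was lower, at -0.75 on the log2 scale. The called genes Eef2k, Abce1 and Gspt1 averaged 1.39, 2.31 and 3.73 in Ctrl, all below the list median. At levels 0 to 2 and 2 to 4, 36.5% and 23.2% of all genes were called in T against Ctrl. No gene of this list was called in M against Ctrl. Of 38 initiation factors, 1 was higher and 1 lower in each comparison with Ctrl, but not the same genes. In T these were Eif5 (0.89) and Eif4e2 (-0.60), and in M Eif2b3 (0.66) and Eif3m (-0.50). Of 22 other TOP messages, none was called in T and 2 were lower in M, Snhg1 (-0.88) and Btf3 (-0.71). Both were dimmer than the list median, averaging 2.53 and 5.19 in Ctrl and 1.65 and 4.48 in M. At levels 2 to 4 and 4 to 5, 13.2% and 4.24% of all genes were called in M against Ctrl.

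Of 75 ribosome biogenesis genes, 23 were lower and 1 was higher in T than in Ctrl (list median -0.40), 5 were lower and none higher in M than in Ctrl (-0.18), and 13 were higher and 2 lower in M than in T (0.22). Nle1, an assembly factor of the large subunit, was lower in T, at -1.11 ± 0.19 (SE). Dkc1, which makes pseudouridine in rRNA, averaged -0.76 in Ctrl, -1.81 in T and -0.30 in M. Nop58, a core protein of methylation particles, was higher in M than in T by 1.02 ± 0.20. The median level of this list was 2.57, in a range where 23.2%, 13.2% and 17.8% of genes (levels 2 to 4) were called in the 3 comparisons.

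Of 34 genes of RNA polymerases I and III, which transcribe rRNA and tRNA, 6 were lower and 1 was higher in T than in Ctrl, with Polr3f at -0.88. That is 20.6% of the list, against 36.5% of all genes at levels 0 to 2, where its median (0.98) lies. Of 78 mitochondrial ribosomal protein genes, none was higher and 9 were lower in T, with Mrpl1 at -0.83, and 1 was lower in M against Ctrl. In M against T 2 of them were higher. These are 11.5%, 1.28% and 2.56% of the list, against 23.2%, 13.2% and 17.8% of all genes at levels 2 to 4 (list median 3.82). Their list median was -0.24 in T against Ctrl, beside -0.28 for the cytosolic subunit genes and -0.14 for all genes.

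Of 32 genes of TOP message control and S6 kinase signalling, 8 were higher and 2 lower in T, and 2 were higher and 2 lower in M than in Ctrl. That is 31.2% and 12.5% of the list, against 36.5% and 24.6% of all genes at levels 0 to 2 (list median 1.07). Myc, a transcription factor that drives ribosomal genes in growing cells, was higher by 3.58 ± 0.21 in T and by 4.21 ± 0.21 in M (SE, limma adjusted p = 2.81e-06 and 6.15e-07), the largest changes of the list. Mxd1, an antagonist of MYC, was higher in T by 1.74. Of 23 genes of ribosome assembly chaperones and the MDM2 axis, 5 were higher and 1 lower in T, 1 higher and 1 lower in M against Ctrl, and 5 lower in M against T. These are 26.1%, 8.70% and 21.7% of the list (median level 2.38), against the 23.2%, 13.2% and 17.8% of genes at levels 2 to 4. Mdm2, the ligase that the Rpl5 and Rpl11 particle binds, rose by 1.88 in T and by 0.67 in M.

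Of 7 tested paralogues and binding proteins, 28.6%, 14.3% and 28.6% were called in the 3 comparisons (median level 2.54). At levels 2 to 4, 23.2%, 13.2% and 17.8% of all genes were. Rpl10l, an autosomal copy of Rpl10, was lower in T, at -1.70 ± 0.49 and in M, at -1.75 ± 0.49. It read 1.57, 1.18 and -0.42 in Ctrl, -0.30, -1.36 and -1.12 in T, and -1.36, -0.43 and -1.14 in M. Ctrl3 lay below T1 and level with M2. Rpl3l, the muscle form of Rpl3, was well above background on the 3 T arrays only and was at least 3.1-fold higher there than in Ctrl and at least 1.87-fold higher than in M. Neither Rpl10 nor Rpl3, their standard forms, passed in any comparison.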

How the data were processed

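The 9 arrays (3 groups of 3) were read from the deposited scanner files, which hold 1-colour (Cy3) spot intensity, the processed signal (Agilent Feature Extraction 10.7.3.1, by the submitters' notes). Per the file headers, this intensity was background-subtracted and detrended array by array, with no scaling across them. The authors' deposited value table, used as an alternative, mixes log2 values (5 columns) with linear intensity (4 columns). Its M1 column equals the M2 scanner file and its M2 column the M1 file, which leaves the group means as they are, and its T2 column equals no file (0.201% of probes within 0.001, against over 99% for the other columns). Its steps are not given in the sources used here. Depth has no meaning for arrays, and the number of arrays limits the precision.

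Control spots and outlier spots were left out and spots of a probe averaged. The log2 of each array's 75th percentile was subtracted. A probe was tested where all 3 arrays of some group read it well above background, and a gene took its brightest tested probe. Genes were named from the files, or RefSeq where accessions matched (26762 of 32914 named probes, with 22767 unnamed). All 9 arrays entered 1 fit in limma 3.58.1 (lmFit, eBayes, R 4.3.3), with no covariates and Benjamini-Hochberg adjustment over 18392 genes. The procedure was tested on simulated data with independent noise for each gene and array. That test does not cover a shift shared by the genes of an array. Intervals are 95%. The labels give replicate numbers without saying what they share. Deviations from the group mean correlated at 0.55, 0.12 and 0.37 between same-numbered Ctrl and T arrays. Between same-numbered arrays of M and either other group they correlated at 0.03 or less. The main fit did not use the numbers as pairs. Fits with the number as a block were run as alternatives only. Differently numbered Ctrl and T arrays ran from -0.45 to 0.19, which overlaps the same-numbered pairs. Ctrl1 with M2 reached 0.35 and T1 with M2 0.32, so the pairing is not established.

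Members and lists were chosen with earlier results of these data known. Genes named in full were called members without overlap between groups, members picked by role, and, of other lists, the called genes with the largest changes. Rpl21, Rps3a and the second probes were picked after their values were seen. Other scalings, background corrections, probe rules, filters, a replicate block and leaving out arrays were tried. Scaling on the 2000 brightest genes, cyclic loess normalization, scaling on the subunit genes' own median and a replicate block in a fit of only the 2 groups compared were chosen after seeing the data. Some members are counted but not reported by name here, and are left out of plots that name genes.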

Additional observations from a re-analysis of the deposited data

Results flagged for a closer look

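For the 7 results given here the effect in T and the effect in M, both measured against the same Ctrl arrays, differed by the test of the difference itself (M minus T, limma, adjusted p under 0.05). Among gene values, Rpl7l1 differed by -0.54 (log2). Among single probes of subunit genes, the second probes of Rpl22 (-1.35), Rpl30 (-1.07), Rpl21 (-1.02), Rps6 (-0.96), Rps15a (-0.89) and Rps3 (-0.83) were lower in M than in T. In M against T 25.5% of all genes tested and 22.8% of all tested probes were called. The Rpl7l1 call ended in 14 of 26 other settings. Of 17 settings, 9 ended the Rps15a call, 8 that of Rpl30, 4 that of Rps3 and 3 that of Rpl21. For Rpl22 and Rps6 it was 1 each. Of the subunit probes 1 other was higher in M than in T and is counted but not named here. The Rpl21 and Rps15a probes were not well above background on any M array. T had a slide and scan of its own, so slide and group cannot be told apart in these differences.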

How the results depend on the processing

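Over 26 alternatives, no subunit gene was called in 19 for T against Ctrl, 18 for M against Ctrl and 21 for M against T, and the most called were 12, 2 and 4. Counts below are over the 81 names. Higher in T than in Ctrl was 1 under median scaling, quantile normalization, trend and robust weights, scaling on the 2000 brightest genes and scaling on the subunits' own median, and 2 with the most often detected probe. Lower in T was 2 with probes above background on all arrays or with trend and robust weights, 4 with the mean of a gene's probes and 3 with the most often detected probe. Lower in M than in Ctrl was 0 under median scaling, the deposited value table, no filter, every probe on its own, the fit of 2 groups, leaving out M1 and M3 together and the subunits' own median. It was 2 with normexp, trend and robust weights or loess, and 3 with all-array detection, the mean of probes or the most often detected probe. Higher in M than in T was 1 under median scaling, quantile normalization or the fit of 2 groups, and 2 with the most often detected probe. Lower in M than in T was 0 under median scaling, normexp, the deposited table, every probe on its own, leaving out M1 and M3 or the subunits' own median, 2 under quantile or 2000-gene scaling, 3 with the mean of probes, and 4 with the most often detected probe or loess.

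Leaving out 1 array gave 0 to 1 names higher in T than in Ctrl and 1 to 13 lower (13 without T1), 0 to 1 lower in M than in Ctrl, and 0 to 1 higher and 0 to 1 lower in M than in T. The share of all genes called then ran from 10.1% to 43.0% for M against Ctrl and from 15.8% to 33.6% for M against T. For M against Ctrl it was 11.1% in the deposited table, 11.98% with 2 groups, 4.85% without M1 and M3 and 13.9% on the subunits' own median. For M against T it was 7.80% in the deposited table, 13.03% without M1 and M3 and 16.2% on the subunits' own median.

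The median difference of the 81 names in T against Ctrl was -0.0044 with quantile normalization and 0.016 with loess. On the subunits' own median it was 0.012, where the median of all genes was 0.15. That scaling subtracts the subunit median itself, so the value for the names was fixed in advance. Without M1 and M3 the median difference of the 81 names was 0.013 in M against Ctrl and 0.29 in M against T. No result reversed among those called. Causes were not tested.

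With the replicate number as a block, T against Ctrl gave 0 names higher and 1 lower, and 0 were called in M against Ctrl and in M against T. In a fit of only the 2 groups compared, added after seeing the data, the block gave 0 higher and 2 lower (Rps4y2 and Rpl5) in T against Ctrl, and 0 in either comparison with M. The blocks changed no other T against Ctrl call among the 81 names. For M, same-numbered arrays share only a number: correlations of deviations ran from -0.27 to 0.02 against Ctrl and from -0.27 to 0.03 against T. Slide as a random block could not be fitted, since the slide is fixed by the groups. The deposited value table has columns of mixed scale, and its T2 column equals no scanner file.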
